A study of Saccharomyces cerevisiae with 12 samples.

Results

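The genes described are 37 translation factor genes of Saccharomyces cerevisiae, chosen by a list of standard gene names that covers the factors of translation initiation, elongation and release. All 37 had a probe, among 6256 gene probes on the array, and all 37 passed the filter on dim probes, as did 6083 genes in all. Every one of the 37 probes was well above background on all 12 arrays, and no spot of them was saturated. The list holds 24 genes of initiation factors, 9 genes of the elongation factors eEF1, eEF2 and eEF3, both eIF5A genes, and both release factor genes, SUP45 and SUP35.

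The arrays measured total RNA from xylose-fermenting yeast after 6 h, with 2 runs in each of 6 groups. The groups were the strain co-expressing TAL and ADH (source label MT8-1X/TAL-ADH) with 70 mM furfural and without it (0 mM), the strain expressing TAL (MT8-1X/TAL-405) at 70 mM and at 0 mM, and the control strain (MT8-1X/404-405) at 70 mM and at 0 mM. All 3 strains share the MT8-1X background, and the labels give neither the promoters nor the vectors of the introduced genes. Furfural is an aldehyde in plant hydrolysates that inhibits fermentation. The labels do not state that run 1 and run 2 came from different cultures; the p-values therefore rest on a spread between samples that could be technical.

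In yeast, translation starts when the cap-binding complex eIF4F and the scaffold eIF3 bring an mRNA to a small ribosomal subunit that carries eIF2 with the initiator tRNA. eIF2B then recharges eIF2 with GTP, and this step is the classic control point of the response to amino acid shortage. Elongation is driven by eEF1A, which delivers tRNAs, eEF2, which moves the ribosome along, and eEF3, an ATPase that fungi need in addition. Genes for this machinery are transcribed heavily in growing yeast, and many of them are lowered together with ribosomal protein genes in stressed cells.

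All levels below are log2 values of the processed signal relative to the 75th percentile of the same array, so a level of a gene is to be compared between arrays and not between genes. Differences are log2 with the standard error (SE) of the fit, 2 arrays against 2, and "called" means that limma's p, adjusted by Benjamini-Hochberg across 6083 genes, was below 0.05. Each level is thus relative to the other transcripts on the same array, and neither cell number nor RNA per cell was measured.

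TAL1, the yeast transaldolase gene, stood between 2.77 and 4.46 on the 8 arrays of the TAL-ADH and TAL strains, against 0.54 and 0.89 in the control strain at 70 mM and 2.34 and 2.81 in the control strain at 0 mM. Its levels in TAL at 70 mM overlapped those of the control strain at 0 mM. ADH1, an alcohol dehydrogenase gene, was at 5.98 and 6.20 in TAL-ADH at 70 mM and 5.01 and 6.38 in TAL-ADH at 0 mM, against 5.65 and 5.12 in the control strain at 70 mM and 6.21 and 6.38 in the control strain at 0 mM. At 0 mM it was thus not above the control strain in TAL-ADH, and the labels do not say which ADH gene was introduced. The arrays of 2 groups went against their labels in GRE2, an aldehyde reductase gene that rose with furfural in the control strain (6.30 ± 0.34). GRE2 was at -2.21 and -2.43 on the arrays labelled TAL-ADH 70 mM and at 3.21 and 3.59 on those labelled TAL 0 mM. On the control strain's arrays it was at 3.23 and 3.89 with furfural and at -3.17 and -2.31 without. Whether the arrays of these 2 groups were exchanged was not tested and cannot be settled from the files. An exchange would change what every comparison that uses either group compares, the strain differences in the furfural effect included, and the groups are given below as labelled. The mean profile of the arrays labelled TAL-ADH 70 mM correlated across genes at 0.992 with control 0 mM and that of TAL 0 mM at 0.969 with TAL 70 mM; genes are not independent replicates. The arrays lay on 3 slides, 1 holding TAL-ADH 70 mM and control 0 mM, 1 holding TAL-ADH 0 mM and TAL 0 mM, and 1 holding TAL 70 mM and control 70 mM. TAL-ADH against TAL without furfural and TAL against control with it are the 2 comparisons made inside 1 slide. For the remaining comparisons of 2 groups, slide and group cannot be told apart.

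In the control strain with furfural, 24 of the 37 translation factor genes fell, 1 rose and 12 did not pass the test. Over all genes, 21.5% were called lower and 14% higher, 35.4% in all, in this comparison. The median change of the 37 genes was -1.01, against -0.18 for all genes tested. All 6 cap-binding genes, all 6 eIF3 genes and both release factor genes fell, as did 1 of 5 eEF1 genes. Both arrays at 70 mM lay below both at 0 mM for 32 of the 37 genes and above them for 1, where 42.6% and 28.5% of all genes did so. Fewer of the 37, and fewer of all genes, were called without control 0 mM run 1, control 0 mM run 2 or control 70 mM run 2. The median change of the 37 was then -1.12, -1.06 and -0.98, against -1.01 with all arrays.

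**Figure D1:**
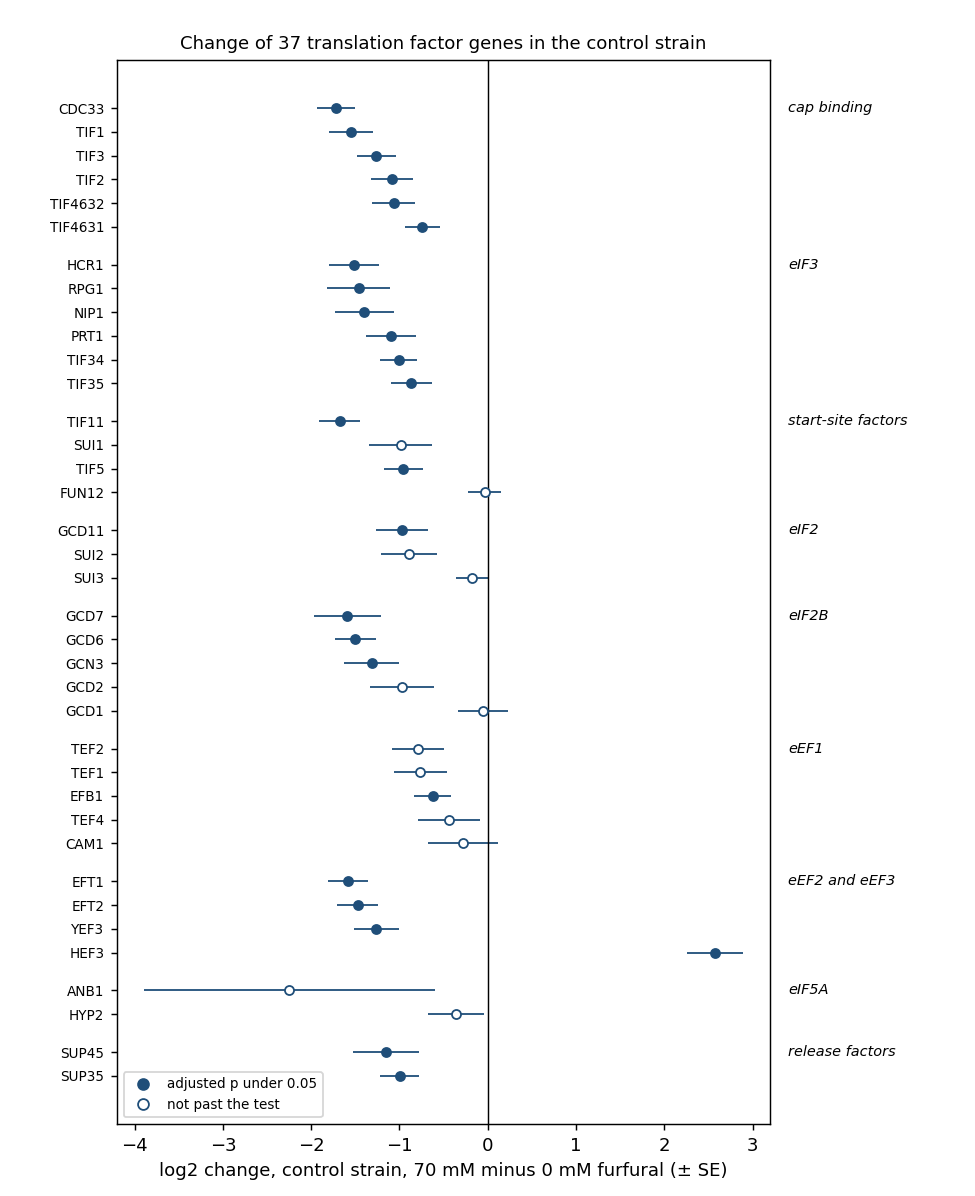
Log2 change of each of the 37 genes in the control strain, 70 mM minus 0 mM furfural, on the horizontal axis, with the SE of the fit as the bar and the genes grouped by role down the page. Filled points passed the test: 24 lie left of 0 and 1, HEF3, lies right of it at 2.57 and open points did not pass, among them ANB1 at -2.25 with the widest bar.

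Among the cap-binding genes, CDC33 encodes eIF4E, the protein that binds the mRNA cap. CDC33 stood at 0.97 and 1.07 in TAL-ADH at 70 mM, 0.91 and 1.19 in TAL-ADH at 0 mM, -0.75 and -0.86 in TAL at 70 mM, -0.62 and -0.48 in TAL at 0 mM, -0.62 and -1.05 in the control strain at 70 mM, and 0.84 and 0.92 in the control strain at 0 mM. The 6 arrays labelled TAL-ADH or control 0 mM were all above 0 and the other 6 all below it. CDC33 fell 3.30-fold in the control strain (-1.72 ± 0.22, adjusted p = 0.000518).

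TIF1 and TIF2 both encode eIF4A, the RNA helicase of the cap complex, as the same protein. For TIF1 the levels were 3.41 and 3.61 in TAL-ADH at 70 mM, 2.96 and 3.15 in TAL-ADH at 0 mM, 1.74 and 1.20 in TAL at 70 mM, 1.73 and 1.31 in TAL at 0 mM, 2.08 and 2.02 in the control strain at 70 mM, and 3.46 and 3.74 in the control strain at 0 mM. For TIF2 they were 3.47 and 3.62 in TAL-ADH at 70 mM, 2.98 and 3.26 in TAL-ADH at 0 mM, 2.18 and 1.76 in TAL at 70 mM, 2.15 and 1.76 in TAL at 0 mM, 2.56 and 2.58 in the control strain at 70 mM, and 3.52 and 3.78 in the control strain at 0 mM. Both genes were lowest in the TAL strain at either dose, and both fell with furfural in the control strain, TIF1 by 1.55 ± 0.25 (adjusted p = 0.00199) and TIF2 by 1.08 ± 0.24 (adjusted p = 0.00787). Probes of near-identical genes can share signal, which also holds for TEF1 with TEF2 and for EFT1 with EFT2, so the members of these pairs are not independent measurements. TIF3, which encodes eIF4B, a partner of the helicase, fell by 1.26 ± 0.22 (adjusted p = 0.00291).

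TIF4631 and TIF4632 encode the 2 forms of eIF4G, the scaffold of the cap complex. TIF4631 stood at 0.89 and 0.69 in TAL-ADH at 70 mM, 0.79 on both arrays of TAL-ADH at 0 mM, -0.37 and -0.62 in TAL at 70 mM, -0.40 and -0.64 in TAL at 0 mM, -0.12 and -0.18 in the control strain at 70 mM, and 0.55 and 0.64 in the control strain at 0 mM. TIF4632 stood at -1.06 and -1.29 in TAL-ADH at 70 mM, -0.66 and -0.90 in TAL-ADH at 0 mM, -2.05 and -2.28 in TAL at 70 mM, -1.28 and -1.54 in TAL at 0 mM, -2.15 and -2.71 in the control strain at 70 mM, and -1.31 and -1.42 in the control strain at 0 mM. The pair parted in the arrays labelled TAL 0 mM, where TIF4631 lay below both control 0 mM arrays while TIF4632 overlapped them. In the control strain TIF4631 fell by 0.74 ± 0.20 (adjusted p = 0.0181) and TIF4632 by 1.07 ± 0.25 (adjusted p = 0.00956).

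eIF3 is the largest initiation factor, and 6 of its genes are on the list. The 3 core subunit genes RPG1, NIP1 and PRT1 fell by 1.46 ± 0.36, 1.40 ± 0.33 and 1.09 ± 0.28 in the control strain with furfural. TIF34 fell by 1.01 ± 0.21 and TIF35 by 0.87 ± 0.23, and HCR1, whose product also acts in ribosome recycling, fell by 1.52 ± 0.28 (adjusted p = 0.00369). Adjusted p of the other 5 ran from 0.00608 for TIF34 to 0.0189 for TIF35. The 6 changes lay between -1.52 and -0.87.

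The start-site factors did not move as a block. TIF11, which encodes eIF1A, stood at 0.86 and 1.15 in TAL-ADH at 70 mM, 0.64 and 1.02 in TAL-ADH at 0 mM, -0.71 and -1.09 in TAL at 70 mM, -0.74 and -0.82 in TAL at 0 mM, -0.64 and -0.85 in the control strain at 70 mM, and 0.85 and 1.02 in the control strain at 0 mM. TIF11 had the same split of arrays around 0 as CDC33, and it fell by 1.68 ± 0.23 in the control strain (adjusted p = 0.000876). TIF5, which encodes eIF5, the activator of GTP hydrolysis by eIF2, fell by 0.95 ± 0.22 (adjusted p = 0.01). SUI1, which encodes eIF1, a guard of start codon choice, was at -0.99 ± 0.35 and did not pass (adjusted p = 0.0566). FUN12, which encodes eIF5B, the GTPase of subunit joining, was at -0.04 ± 0.19 (95% interval -0.46 to 0.38), and its levels on the 12 arrays ran from 1.00 to 1.39.

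For eIF2, GCD11, the gamma subunit gene, fell by 0.97 ± 0.29 (adjusted p = 0.0312). The alpha subunit gene SUI2, whose product is the phosphorylation target of the kinase Gcn2, was at -0.89 ± 0.32 (adjusted p = 0.0556). The beta subunit gene SUI3 was at -0.18 ± 0.19 (95% interval -0.60 to 0.24).

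The eIF2B genes spread widely. GCD7, the beta subunit gene, stood at -1.80 and -1.89 in TAL-ADH at 70 mM, -1.84 and -2.28 in TAL-ADH at 0 mM, -2.75 and -3.46 in TAL at 70 mM, -2.31 and -2.83 in TAL at 0 mM, -2.86 and -3.93 in the control strain at 70 mM, and -1.73 and -1.88 in the control strain at 0 mM. It was lowest on control 70 mM run 2, more than 1 log2 unit below the other run of that group, and fell by 1.59 ± 0.38 in the control strain (adjusted p = 0.012). GCD6, which encodes the catalytic epsilon subunit, fell by 1.502 ± 0.23 (adjusted p = 0.00158), and GCN3, the gene of the alpha subunit that senses phosphorylated eIF2, fell by 1.32 ± 0.32 (adjusted p = 0.0116). GCD2, the delta subunit gene, was at -0.97 ± 0.36 (adjusted p = 0.0657). GCD1, the gamma subunit gene, was at -0.05 ± 0.28 (95% interval -0.69 to 0.59), so that subunit genes of 1 complex ranged from a called 3.01-fold fall to a change that did not pass.

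eEF1 is the tRNA-delivering complex: TEF1 and TEF2 encode eEF1A as the same protein, EFB1 the exchange factor eEF1B-alpha, and TEF4 and CAM1 the 2 forms of its gamma subunit. TEF1 stood at 5.83 and 5.68 in TAL-ADH at 70 mM, 4.90 and 5.35 in TAL-ADH at 0 mM, 4.36 and 3.86 in TAL at 70 mM, 4.41 and 3.74 in TAL at 0 mM, 5.25 and 4.85 in the control strain at 70 mM, and 5.72 and 5.90 in the control strain at 0 mM. TEF2 stood at 5.90 and 5.72 in TAL-ADH at 70 mM, 5.19 and 5.58 in TAL-ADH at 0 mM, 4.34 and 3.83 in TAL at 70 mM, 4.59 and 3.94 in TAL at 0 mM, 5.27 and 4.86 in the control strain at 70 mM, and 5.76 and 5.95 in the control strain at 0 mM. All 4 arrays of the TAL strain lay below all other arrays for both genes. The control strain's change with furfural was -0.76 ± 0.30 for TEF1 (adjusted p = 0.0764) and -0.79 ± 0.30 for TEF2 (adjusted p = 0.0657), and neither passed.

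TEF4 was at 3.23 and 3.33 in TAL-ADH at 70 mM, 2.67 and 3.54 in TAL-ADH at 0 mM, 1.94 and 2.13 in TAL at 70 mM, 1.36 and 1.64 in TAL at 0 mM, 2.31 and 3.14 in the control strain at 70 mM, and 2.97 and 3.35 in the control strain at 0 mM. CAM1 was at 1.70 and 2.06 in TAL-ADH at 70 mM, 1.35 and 1.65 in TAL-ADH at 0 mM, 0.94 and 1.5002 in TAL at 70 mM, 0.87 and 1.19 in TAL at 0 mM, 0.99 and 2.21 in the control strain at 70 mM, and 1.66 and 2.10 in the control strain at 0 mM. For both genes the groups of the control strain overlapped, and the changes of TEF4 (-0.43 ± 0.35) and CAM1 (-0.28 ± 0.40) did not pass. EFB1 fell by 0.63 ± 0.21 (adjusted p = 0.0456), just inside the threshold.

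EFT1 and EFT2 encode eEF2, the translocase that carries the diphthamide modification, as the same protein. EFT1 stood at 3.63 and 3.90 in TAL-ADH at 70 mM, 3.14 and 3.11 in TAL-ADH at 0 mM, 1.41 and 1.49 in TAL at 70 mM, 1.45 and 1.51 in TAL at 0 mM, 1.98 and 2.41 in the control strain at 70 mM, and 3.59 and 3.95 in the control strain at 0 mM. EFT2 stood at 4.05 and 4.34 in TAL-ADH at 70 mM, 3.69 and 3.74 in TAL-ADH at 0 mM, 1.99 and 2.08 in TAL at 70 mM, 2.11 and 2.17 in TAL at 0 mM, 2.53 and 2.98 in the control strain at 70 mM, and 4.03 and 4.43 in the control strain at 0 mM. The 4 TAL arrays were again the lowest for both genes, followed by control 70 mM. EFT1 fell by 1.58 ± 0.23 (adjusted p = 0.00108) and EFT2 by 1.48 ± 0.23 (adjusted p = 0.00174) in the control strain.

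eEF3 is encoded by YEF3 and by its relative HEF3, which is little used in cells growing under ordinary conditions. The pair moved in opposite directions with furfural in the control strain. YEF3 stood at 3.87 and 3.65 in TAL-ADH at 70 mM, 3.53 and 3.57 in TAL-ADH at 0 mM, 2.14 and 1.49 in TAL at 70 mM, 2.56 and 2.27 in TAL at 0 mM, 2.53 and 2.498 in the control strain at 70 mM, and 3.65 and 3.89 in the control strain at 0 mM. HEF3 stood at -1.09 and -0.81 in TAL-ADH at 70 mM, -0.98 and -0.79 in TAL-ADH at 0 mM, 0.61 and 0.62 in TAL at 70 mM, 0.62 and 0.46 in TAL at 0 mM, 1.34 and 1.95 in the control strain at 70 mM, and -1.36 and -0.49 in the control strain at 0 mM. HEF3 was below 0 on the 6 arrays labelled TAL-ADH or control 0 mM and above 0 on the other 6, the mirror image of CDC33 and TIF11. With furfural in the control strain YEF3 fell by 1.26 ± 0.25 (adjusted p = 0.00511) and HEF3 rose 5.95-fold (2.57 ± 0.31, adjusted p = 0.000452).

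eIF5A, the hypusine-bearing factor that helps the ribosome past difficult peptide bonds, is encoded by HYP2 in the presence of oxygen and by ANB1 in its absence. HYP2 stood at 4.96 and 4.72 in TAL-ADH at 70 mM, 4.43 and 4.59 in TAL-ADH at 0 mM, 4.13 and 3.46 in TAL at 70 mM, 3.74 and 2.85 in TAL at 0 mM, 4.42 and 4.48 in the control strain at 70 mM, and 4.77 and 4.85 in the control strain at 0 mM. ANB1 stood at 0.69 and 0.54 in TAL-ADH at 70 mM, 0.41 and 0.11 in TAL-ADH at 0 mM, -0.22 and -4.88 in TAL at 70 mM, -0.64 and -4.88 in TAL at 0 mM, -0.33 and -3.38 in the control strain at 70 mM, and 0.63 and 0.15 in the control strain at 0 mM. In 3 groups run 2 of ANB1 lay at least 3.05 log2 below run 1, so its change in the control strain, -2.25 ± 1.65, had an SE larger than that of any other of the 37 genes and did not pass (adjusted p = 0.314). HYP2, at -0.36 ± 0.32, did not pass either (adjusted p = 0.407).

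**Figure D2:**
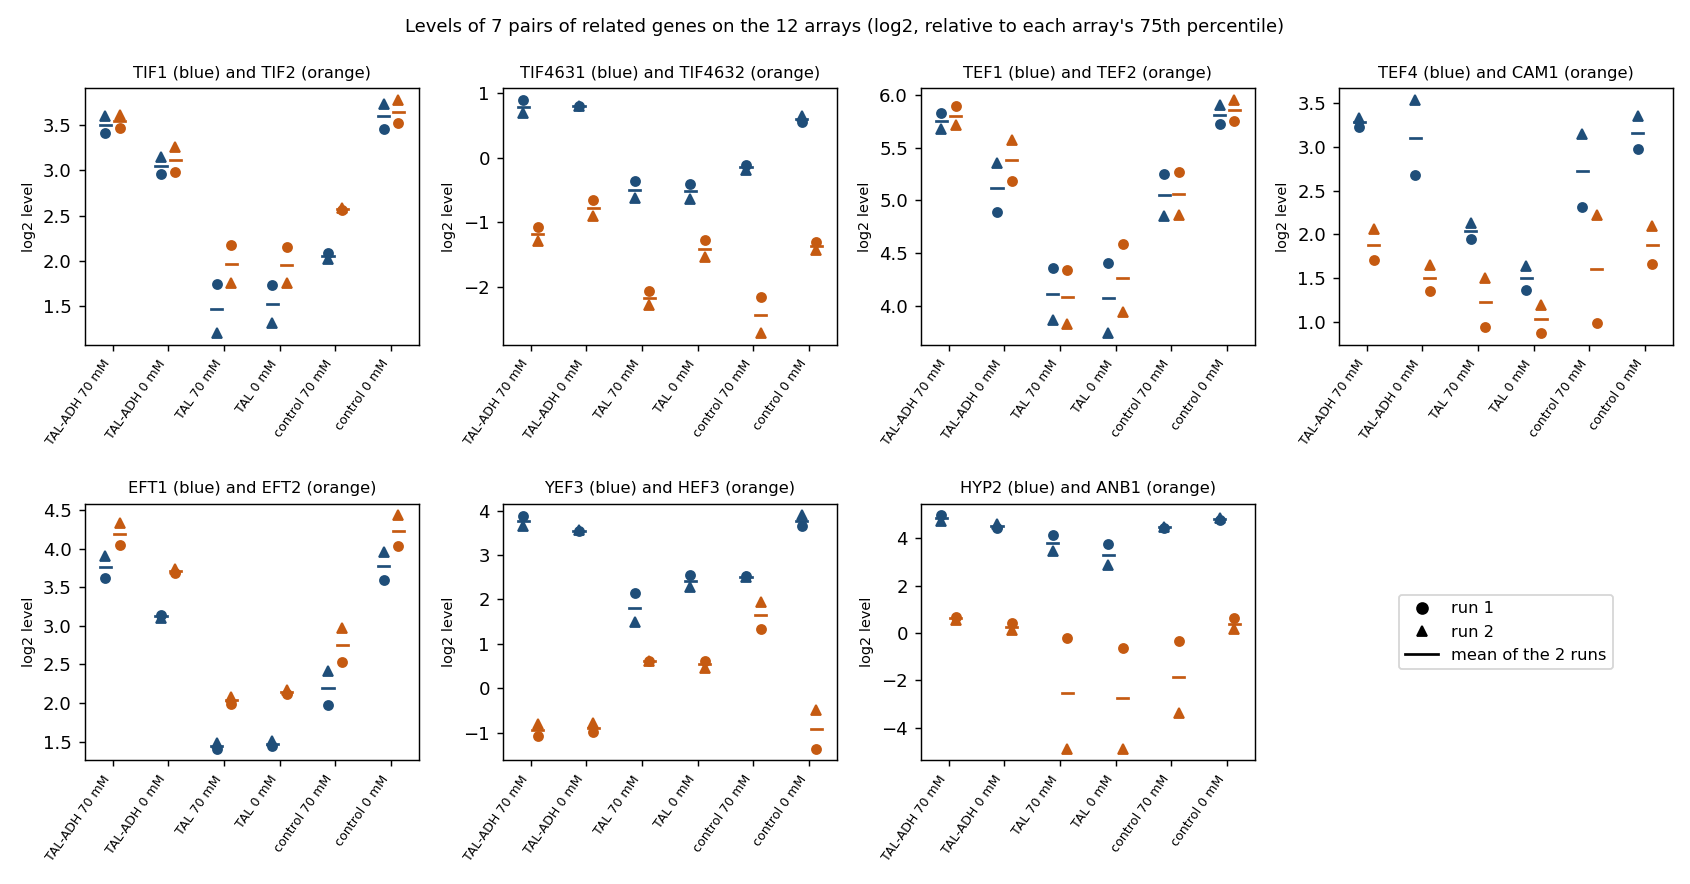
Log2 level relative to the array's 75th percentile (vertical axis) on each array for 7 pairs of related genes, by group along the horizontal axis, with circles for run 1, triangles for run 2 and a short line at the mean of the 2 runs. YEF3 is higher and HEF3 lower on the arrays labelled TAL-ADH or control 0 mM than on the rest. Both are lower in TAL 70 mM than in control 70 mM. ANB1 shows run 2 between -3.38 and -4.88 in TAL 70 mM, TAL 0 mM and control 70 mM. The height of 1 probe is not to be set against that of another.

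The release factor genes fell together in the control strain. SUP45, which encodes eRF1, the reader of stop codons, fell by 1.15 ± 0.37 (adjusted p = 0.0389), and SUP35, which encodes the GTPase eRF3 and is the gene behind the PSI+ prion, fell by 1.00 ± 0.22 (adjusted p = 0.00796).

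In the TAL strain none of the 37 genes was called between 70 mM and 0 mM furfural. The arrays labelled TAL 0 mM, used here, went against their label in GRE2. By limma 0.0986% of all genes were called, 0.0329% higher and 0.0658% lower, and 7 of the 37 had an unadjusted p under 0.05. The median of the 37 changes was -0.10, against -0.08 for all genes. Both arrays at 70 mM lay below both at 0 mM for 11 genes and above them for 4, where 26.6% and 16% of all genes did so. The lowest values were those of RPG1 (-1.25 ± 0.36, adjusted p = 0.188) and GCN3 (-1.12 ± 0.32, adjusted p = 0.186), followed by TIF4632 (-0.76 ± 0.25) and TIF5 (-0.75 ± 0.22). These 4 genes had no call between the arrays labelled TAL 0 mM and control 0 mM, with differences of -0.61 ± 0.36 for RPG1, -0.10 ± 0.32 for GCN3, -0.04 ± 0.25 for TIF4632 and -0.15 ± 0.22 for TIF5. The TAL arrays with furfural lay below those without for both leading genes, RPG1 at -2.21 and -2.92 in TAL at 70 mM and at -0.87 and -1.75 in TAL at 0 mM, and GCN3 at -3.19 and -3.70 in TAL at 70 mM and at -2.17 and -2.47 in TAL at 0 mM. For CDC33 the change was -0.25 ± 0.22, with a 95% interval of -0.74 to 0.23, and for HEF3 0.08 ± 0.31, with an interval of -0.63 to 0.79.

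In the TAL-ADH strain none of the 37 genes was called either. The arrays labelled TAL-ADH 70 mM, used here, went against their label in GRE2. Over all genes 0.0329% were called, and 1 of the 37, EFT1, had an unadjusted p under 0.05 (0.64 ± 0.23, adjusted p = 0.999). The median was 0.17, against -0.01 for all genes. Both arrays at 70 mM lay above both at 0 mM for 18 of the 37 genes, where 14.1% of all genes did so, and below them for 2, where 15% did so. Beside EFT1 the highest values were TEF1 (0.63 ± 0.30) and GCD11 (0.63 ± 0.29), and the lowest was RPG1 (-0.64 ± 0.36).

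Whether the furfural effect differed between strains was tested directly. Compared with the control strain, the furfural effect in the TAL-ADH strain was higher for 17 of the 37 genes and lower for 1, where 11.2% and 8.4% of all genes were called (19.6% in all). The difference was largest for HEF3 (-2.63 ± 0.45, adjusted p = 0.00471) and, among those higher, for EFT1 (2.22 ± 0.32) and TIF1 (2.01 ± 0.36). Between the TAL strain and the control strain the effect was higher for 7 genes and lower for 1, where 5.13% and 5.1% of all genes were called (10.2% in all). The 7 were TIF11 (1.56 ± 0.33), EFT1 (1.55 ± 0.32), TIF1 (1.499 ± 0.36), CDC33 (1.47 ± 0.30), TIF34 (1.43 ± 0.29), EFT2 (1.37 ± 0.33) and TIF3 (1.17 ± 0.31), and the 1 was HEF3 (-2.49 ± 0.45). These differences rest on the arrays labelled TAL-ADH 70 mM or TAL 0 mM and cannot be had without them. They also share the control arrays with the furfural comparison of the control strain, so the 3 are not independent. With each array left out in turn, the median difference of the 37 ran from 1.12 to 1.41 for TAL-ADH, against 1.21 with all arrays. For TAL it ran from 0.65 to 1.04, against 0.80. Leaving out any array lowered the number of the 37 called for TAL-ADH. For TAL the number fell when 1 array of TAL-ADH 70 mM, either TAL group or control 0 mM, or control 70 mM run 2, was left out. Calls over all genes also fell in some of these fits.

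**Figure D3:**
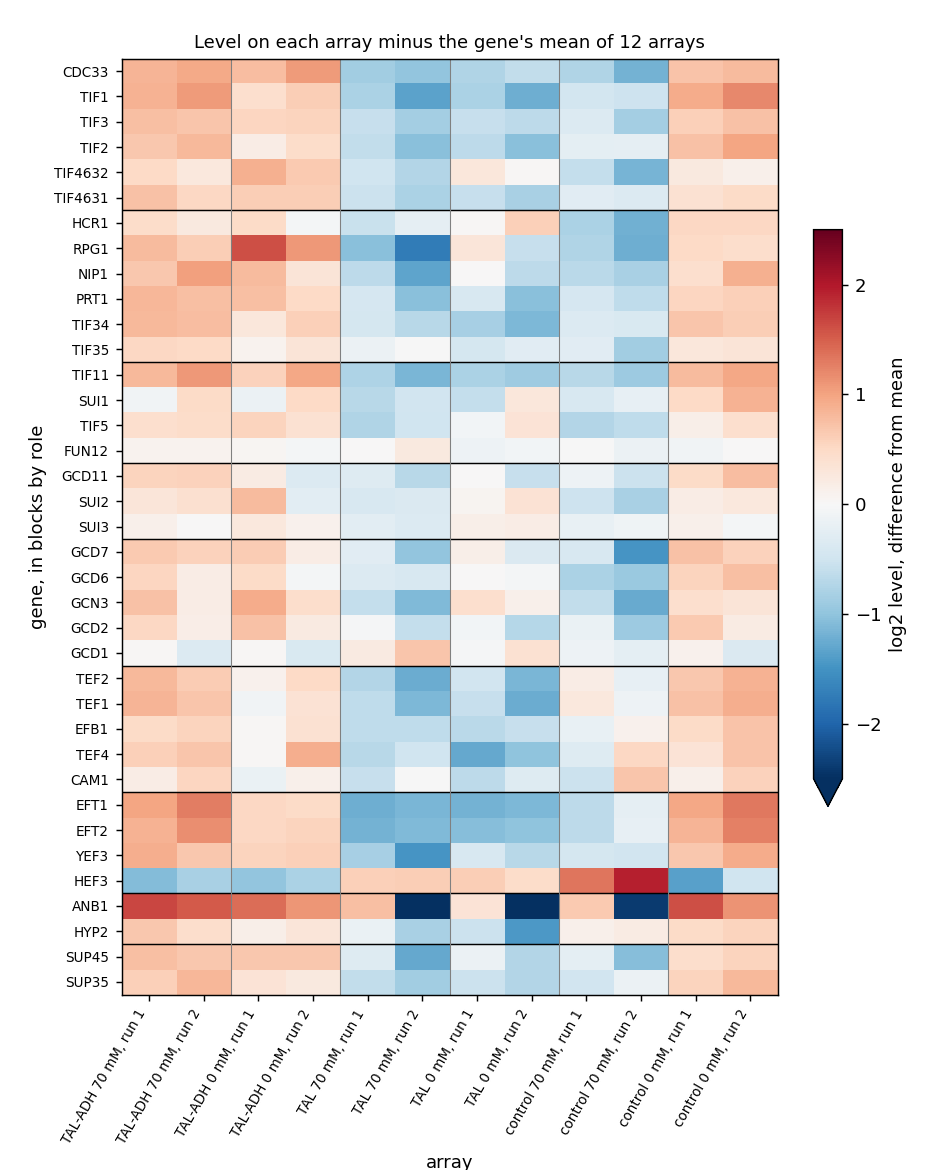
Log2 level of each of the 37 genes on each array minus the gene's mean over the 12 arrays, as colour (red higher, blue lower, scale -2.5 to 2.5), with genes down the page in blocks by role and arrays across it by group. Most rows are red on the arrays labelled TAL-ADH or control 0 mM and blue on the rest, HEF3 is the reverse, and FUN12, SUI3 and GCD1 stay pale.

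At 0 mM, the arrays labelled TAL were lower than those of the control strain for 18 of the 37 genes and higher for 1, where 13.5% and 14.9% of all genes were called (28.4% in all). The median was -0.97, against 0.03 for all genes. Both TAL arrays lay below both control arrays for 28 genes, where 33.8% of all genes did so. The elongation genes were among the lowest: EFT1 was at -2.30 ± 0.23, EFT2 at -2.09 ± 0.23, TEF1 at -1.74 ± 0.30, TEF4 at -1.66 ± 0.35 and TEF2 at -1.59 ± 0.30. Of the initiation genes, TIF1 was at -2.08 ± 0.25, TIF11 at -1.71 ± 0.23, TIF2 at -1.70 ± 0.24 and TIF34 at -1.63 ± 0.21, and HYP2 was at -1.52 ± 0.32. HEF3 was the gene that was higher (1.47 ± 0.31, adjusted p = 0.00912). None of the 5 eIF2B genes passed, with values from -0.83 ± 0.36 for GCD2 to 0.31 ± 0.28 for GCD1, while 4 of 5 eEF1 genes did. In the control strain with furfural those counts were 3 of 5 eIF2B genes and 1 of 5 eEF1 genes. These counts turn on genes near the threshold there. Adjusted p was 0.0456 for EFB1, 0.0657 for TEF2 and GCD2, and 0.0764 for TEF1. The 2 comparisons share the control 0 mM arrays, and the difference between them was not tested. The arrays labelled TAL 0 mM went against their label in GRE2.

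Between the TAL-ADH strain and the control strain at 0 mM none of the 37 genes was called, with 0.0164% of all genes called and 5 of the 37 at an unadjusted p under 0.05 by limma. Both TAL-ADH arrays lay below both control arrays for 17 of the 37 genes and above them for 5, where 17.7% and 21% of all genes did so. Values ran from -0.69 ± 0.29 for GCD11 to 0.87 ± 0.36 for RPG1, with a median of -0.12.

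TAL-ADH against TAL at 0 mM, with TAL arrays that went against their label in GRE2, is a comparison within 1 slide. It had 18 of the 37 genes higher and 1 lower, where 12.7% and 13% of all genes were called, with a median of 0.93 against 0.04 for all genes. Both TAL-ADH arrays lay above both TAL arrays for 29 genes, where 31.2% of all genes did so. EFT1 was higher by 1.65 ± 0.23, TIF11 by 1.61 ± 0.23, TEF4 by 1.61 ± 0.35, CDC33 by 1.60 ± 0.22, RPG1 by 1.49 ± 0.36 and TIF34 by 1.42 ± 0.21, while HEF3 was lower (-1.43 ± 0.31). With only the 4 arrays of that slide in the fit, 7 remained higher (CDC33, EFT1, EFT2, TIF1, TIF11, TIF34 and TIF4631) and HEF3 lower, with 10.7% of all genes called in either direction. With each array left out in turn, the median of the 37 ran from 0.78 to 1.21. Fewer of the 37 were called without TAL 0 mM run 2 or TAL-ADH 0 mM run 2.

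At 70 mM, the TAL and control strains shared a slide, and none of the 37 genes was called between them, with 0.0822% of all genes called (0.0329% higher, 0.0493% lower) and 10 of the 37 at an unadjusted p under 0.05 by limma. With the run number as a block more genes were called, among the 37 and among all genes, as given below with the other alternatives. The lowest values were HEF3 (-1.03 ± 0.31, adjusted p = 0.174), TEF2 (-0.98 ± 0.30) and TEF1 (-0.94 ± 0.30), and the highest was GCD1 (0.64 ± 0.28). The median was -0.21, against 0.02 for all genes. Both TAL arrays lay below both control arrays for 16 of the 37 genes and above them for 6, where 18.3% and 25.4% of all genes did so.

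The arrays labelled TAL-ADH at 70 mM were higher than the control strain at 70 mM for 24 of the 37 genes and lower for 1, where 22.5% and 14.1% of all genes were called. CDC33 was higher by 1.86 ± 0.22, TIF11 by 1.75 ± 0.23, RPG1 by 1.69 ± 0.36, NIP1 by 1.60 ± 0.33, EFT1 by 1.57 ± 0.23 and GCD7 by 1.54 ± 0.38, and HEF3 was lower (-2.59 ± 0.31). Against TAL at 70 mM, 26 genes were higher and 1 lower, where 18% and 13.9% of all genes were called, and both TAL-ADH arrays lay above both TAL arrays for 34, where 40% of all genes did so. EFT1 was higher by 2.31 ± 0.23, EFT2 by 2.16 ± 0.23, RPG1 by 2.09 ± 0.36, TIF1 by 2.04 ± 0.25 and YEF3 by 1.94 ± 0.25, and HEF3 was lower (-1.57 ± 0.31). The genes that did not pass in this last comparison were SUI1, SUI2, SUI3, FUN12, GCD1, GCD2, TIF35, HCR1, CAM1 and ANB1. Both comparisons use the arrays labelled TAL-ADH 70 mM, which went against their label.

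**Figure D4:**
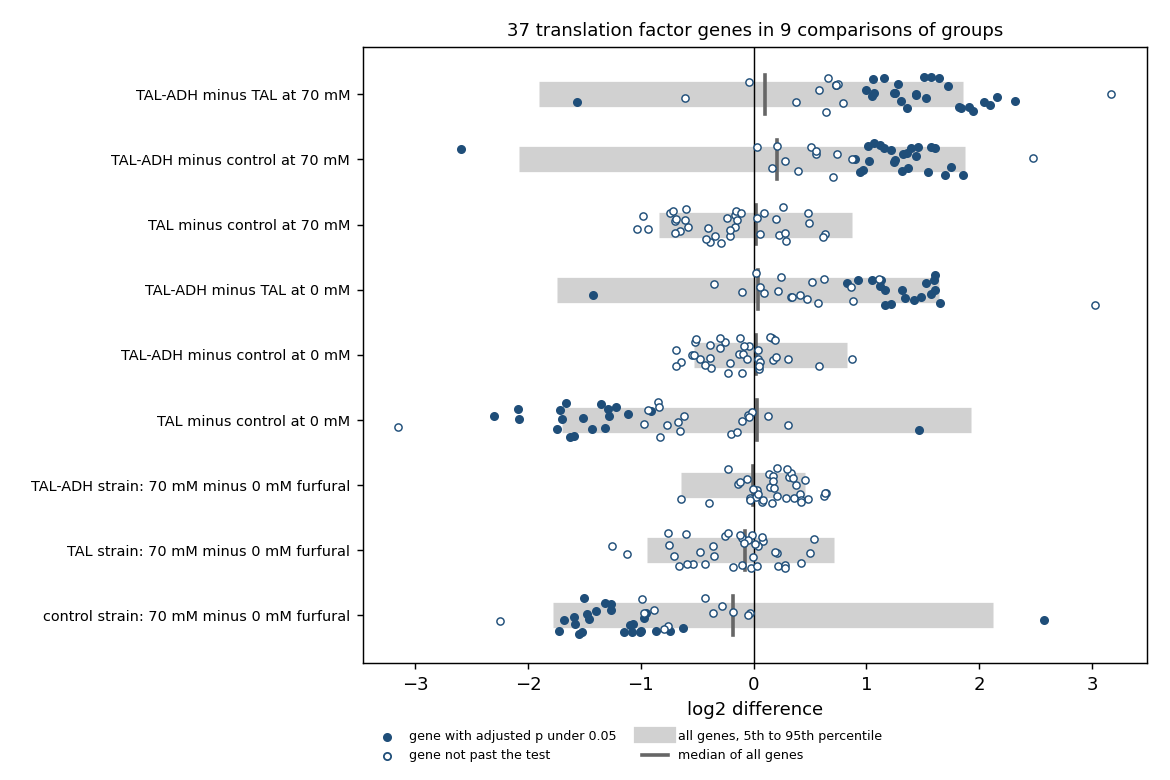
Log2 difference of each of the 37 genes (points, horizontal axis) in 9 comparisons of groups (rows), with filled points past the test, a grey bar from the 5th to the 95th percentile of all genes and a dark line at their median. Calls are absent in the furfural comparisons of TAL-ADH and TAL, in TAL minus control at 70 mM and in TAL-ADH minus control at 0 mM, and the filled point alone on the other side of 0 in each remaining comparison is HEF3, while the open point farthest out beyond the rest is ANB1.

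Over the 3 strains together, none of the 37 genes was called for furfural by limma, and no gene of all 6083 was called (percent called 0). This fit takes the furfural effect as the same in each strain, though a difference between strains, as labelled, was called for some of the 37. Such differences add to its residual spread, so the lack of calls is not a lack of change. Of the 37 genes, 8 had an unadjusted p under 0.05, and the median of the 37 was -0.34, against -0.10 for all genes. With each array left out in turn the median ran from -0.45 to -0.21. Without TAL-ADH 0 mM run 2 some genes were called, among the 37 and so among all genes. With the slide as a term in this fit, 1 of the 37, HEF3, was higher (2.43 ± 0.55, adjusted p = 0.0449), where 3.55% of all genes were called. Of the 37 estimates 35 were below 0, with a median of -0.67 against -0.12 for all genes. The share of all genes below 0 was not counted. Given the layout of the slides, this estimate equals the TAL-ADH change minus the TAL change plus the control change. It is thus not an average over strains, and it rests on both groups that went against their labels in GRE2. Without the arrays labelled TAL-ADH 70 mM and TAL 0 mM, 22 fell and HEF3 rose, where 17.1% of all genes were called lower and 12.2% higher (29.3% in all), and the estimate then is that of the control strain alone.

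Other genes around the translation factors were counted in the control strain with furfural, where 21.5% of all genes were called lower and 14% higher, with a median of -0.18. Of 26 regulators, modifiers and partners of the factors, 15 fell, 2 rose and 9 did not pass, with a median of -1.07. CAF20, an eIF4E-binding protein gene that competes with eIF4G, fell by 2.67 ± 0.27, while EAP1, the gene of the other such protein, was at 0.01 ± 0.42. STM1, whose product sits on idle ribosomes, fell by 2.64 ± 0.28, and ASC1, a ribosome-bound scaffold gene, by 2.20 ± 0.35. DYS1, the first enzyme of hypusine formation on eIF5A, fell by 1.65 ± 0.35, and LIA1, the second, was at 0.80 ± 0.32 and did not pass (adjusted p = 0.0801). DBP1, a helicase gene related to DED1, rose by 2.00 ± 0.45, and DED1 itself was at 0.99 ± 0.41 (adjusted p = 0.0891). GCN4, the activator gene of amino acid synthesis, fell by 0.79 ± 0.23 (adjusted p = 0.0265), and the eIF2 kinase gene GCN2 was at -0.10 ± 0.25. Of 22 listed genes, those of cytosolic aminoacyl-tRNA synthetases and ARC1, 21 were found by name among the genes tested. Of these 21, 12 fell and none rose, with a median of -0.96. Of 7 mitochondrial translation factor genes 2 fell and 1 rose, shares near those of all genes, with a median of -0.33.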

How the data were processed

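Total RNA of 12 yeast samples was labelled with Cy3 and hybridised to 1-colour Agilent arrays, 1 array per sample. The scanner output as deposited gives, per the file headers, spot intensity, background-subtracted and detrended within the array by Agilent Feature Extraction 10.1.1.1 (also in the submitters' processing notes) and not normalized between arrays, with the raw median intensity of spot and local background. The deposited table holds log2 values; its column medians ran from -0.170 to 0.0577, and its shift to each array's 75th percentile and centring per probe were read off the values, since no label gives them.

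Here the log2 processed intensity was averaged over the 7 spots of a probe (outlier spots left out) and reduced by the array's 75th percentile. Genes detected (over 50% of spots well above background) on both arrays of at least 1 group were kept: 6083 of 6256, with 5914 to 6121 detected per array and a 75th percentile signal of 2529 to 7414 intensity units. The number of arrays limits the precision. limma 3.58.1 in R 4.3.3 was fitted to 6 group means (6 residual degrees of freedom; additive in strain and furfural for the comparison over strains), after a test on simulated data. Genes were named through the RefSeq gene table of assembly R64, to which 5756 probes matched and 500 did not; probe sequences and genome positions were not used here. The 37 genes and the other lists were chosen with earlier results of these data known. Named genes are the 37, with levels on every array for the 6 called genes with the largest change in the control strain and for 7 pairs of related genes; other comparisons name at most 10 called genes per direction, and the examples not past the test and those outside the 37 were chosen after their values were seen. Alternatives were quantile normalization, normexp background correction (offset 50), other filters on dim probes, the deposited table, fits on the compared groups alone, the run number or the slide as a block, and each array left out in turn. Run differences correlated between groups, across genes, at 0.0435 to 0.861: 14 of 15 pairs of groups were over 0.1 and 1 (control 70 mM with TAL-ADH 0 mM) was not, so same-numbered runs shared structure, but the threshold for taking the number as a pairing, all pairs over 0.1, was not met. The run number was therefore used in an alternative only.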

Additional observations from a re-analysis of the deposited data

Results flagged for a closer look

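The difference between strains in the furfural effect passed the test for 18 of the 37 genes between TAL-ADH and control and for 8 between TAL and control. Between TAL-ADH and control it was 2.22 for EFT1, 2.01 for TIF1, 1.96 for EFT2, 1.85 for TIF11, 1.80 for GCD7, 1.70 for NIP1, 1.69 for CDC33, 1.66 for HCR1 and 1.65 for GCD6. It was 1.59 for GCD11, 1.504 for TIF2, 1.47 for YEF3, 1.44 for TIF3, 1.41 for SUP35, 1.39 for TEF1, 1.36 for TIF34, 1.15 for TIF35 and -2.63 for HEF3. Between TAL and control it was 1.56 for TIF11, 1.55 for EFT1, 1.499 for TIF1, 1.47 for CDC33, 1.43 for TIF34, 1.37 for EFT2, 1.17 for TIF3 and -2.49 for HEF3. Each of these values is a log2 difference of changes, 2 arrays per group, and each uses arrays that went against their label in GRE2.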

How the results depend on the processing

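In the control strain 11 of the 37 genes, 10 lower and HEF3 higher, were called under all 19 alternatives tried. The count of called genes there ran from 12 to 25 with 1 array left out. It ran from 15 to 20 for TAL minus control at 0 mM, 10 to 20 for TAL-ADH minus TAL at 0 mM, 18 to 25 for TAL-ADH minus control at 70 mM and 19 to 28 for TAL-ADH minus TAL at 70 mM. It ran from 1 to 8 for the furfural effect of TAL minus control, 7 to 17 for that of TAL-ADH minus control and 0 to 5 for furfural over the 3 strains, and was 0 throughout in the 4 other comparisons. Calls over all genes also varied between the fits with 1 array left out. The run number as a block called 2 of the 37 genes for furfural in TAL, where 55 of all 6083 genes were called, against 6 without the block. It called 1 of the 37 for TAL minus control at 70 mM, where all genes called went from 5 to 357. For the furfural effect of TAL minus control it called 14, where all genes called went from 622 to 1351. It moved no other count of the 37 genes by over 1.5 times. In the control strain with furfural 30 were called, where all genes called went from 2156 to 3053. The labels do not say what the run numbers share. Fitting the groups compared alone called 8 genes for TAL-ADH minus TAL at 0 mM, with fewer arrays behind the spread. Over the 3 strains, 1 gene was called with the slide as a block and 23 without the arrays labelled TAL 0 mM and TAL-ADH 70 mM. The estimate with the slide combines the changes of the strains with that of TAL subtracted. The estimate without those arrays is that of the control strain alone. In all, 3 genes with no call changed sign in the control strain: FUN12 was at 0.0856 with normexp and between -0.108 and 0.0360 with 1 array left out (0.00829 without run 2 of control 0 mM), GCD1 lay between -0.280 and 0.18, with 0.0101 when control 70 mM run 2 was left out, and CAM1 between -0.889 and 0.34; the cause was not tested. Among the settings tried for single genes, 2595 of 2907 kept direction and call, 295 lost the call, 11 gained it and 6 changed sign. Quantile normalization moved the median of all genes in the control strain to -0.06, against -0.18. Apart from the fit over strains, no model with the 6 group means could also hold a term for slide.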

Other observations

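The split of ANB1 between runs was described further with other genes that yeast expresses more without oxygen, listed after its values were seen. Run 2 minus run 1 of ANB1 was -4.65 in TAL at 70 mM, -4.24 in TAL at 0 mM and -3.05 in the control strain at 70 mM, a difference that 0.0658%, 0.0493% and 0.707% of all genes equalled or exceeded in size there. In the other 3 groups it was -0.15 in TAL-ADH at 70 mM, -0.30 in TAL-ADH at 0 mM and -0.48 in the control strain at 0 mM. AAC3, the gene of a mitochondrial ADP/ATP carrier of oxygen-poor growth, had -1.79, -1.49 and -2.05 in the first 3 groups and -0.58, -0.49 and -0.66 in the others. DAN1, a cell wall mannoprotein gene of anaerobic growth, had -2.58, -1.77 and -2.04 in the first 3 groups and 1.57, 2.11 and 1.28 in the others. COX5B, an alternative cytochrome oxidase subunit gene, had -0.53, -0.82 and -0.99 in the first 3 and 0.47, 0.45 and 0.07 in the others. HEM13, a heme synthesis gene, had -0.75, -0.95 and -0.42 in the first 3 and 0.30, 0.45 and 0.36 in the others. CYC7 and TIR1 did not follow: CYC7 was at -0.21, 0.00 and -0.28 in the first 3 and at -0.84, -0.56 and -0.34 in the others, and TIR1 at -1.51, -1.25 and 1.13 in the first 3 and at 1.15, 1.47 and 1.15 in the others. Each value is a difference of 2 single arrays with no replicate, and the part of oxygen supply in it was not tested.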
